A study of Mus musculus with 6 samples.

Results

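The nuclear genes for the protein subunits of the mitochondrial respiratory chain and ATP synthase were followed in mouse germline stem cells grown in 8 mM pyruvate medium or in complete medium. Members were chosen by gene name: protein-coding genes whose symbol begins with Ndufa, Ndufb, Ndufc, Ndufs or Ndufv, with Uqcr, with Atp5, or with Cox4 to Cox8, together with Cyc1 and Cycs. Assembly factors named Ndufaf and pseudogenes were left out. This gave 85 of the 32285 genes counted, namely 39 of complex I, 10 of complex III with cytochrome c, 18 of complex IV and 18 of complex V. One of them, Ndufb1-ps, is protein-coding in RefSeq under the name Ndufb1 but not in the GENCODE annotation, and Usmg5 enters under its newer name Atp5md. Atp5s, named Dmac2l in RefSeq, is counted under complex V by its GENCODE name only.

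Germline stem cells are cultured spermatogonial stem cells that keep the ability to renew themselves and to colonise a testis. Both groups were wild-type cells of 1 line, named DBA-GFP for its strain background and green fluorescent marker, and each group had 3 RNA sequencing libraries. The groups differ in the label for the medium only: 8 mM pyruvate medium (the pyruvate group) or complete medium (the control group). Nothing in the labels says that libraries of a group came from separate cultures, so that the p-values speak only of these libraries, and their spread may be technical.

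The respiratory chain passes electrons from NADH at complex I, and from succinate at complex II, through complex III and cytochrome c to oxygen at complex IV. Complexes I, III and IV pump protons out of the mitochondrial matrix, and complex V, the ATP synthase, lets them return and makes ATP. Pyruvate made by glycolysis, or taken up from the medium, feeds this chain after it enters the mitochondrion and is oxidised. Most subunits come from nuclear genes, which are the ones described here. The rest are encoded in mitochondrial DNA. Several complex IV subunits have a second gene copy used mainly in testis, muscle or lung.

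The libraries held 24749338, 25562768 and 21830090 counts in pyruvate replicates 1, 2 and 3 and 21714164, 26413080 and 20918312 in control replicates 1, 2 and 3. Control replicate 2 stood apart from the others: it lay at 36.5 on the first principal component, where 4 of the others lay between -4.64 and 0.81. Pyruvate replicate 1 lay apart on the other side, at -27.2. When libraries were weighted by their scatter, control replicate 2 received 0.156 and pyruvate replicate 1 received 0.425, the lowest weights of the 6. The counts, the medians and the genes whose value moves most are therefore also given without control replicate 2. Without pyruvate replicate 1, no subunit gene passed and the median log2 fold change of those tested was -0.05. Germ cell markers were abundant, with 2602 to 3069 CPM (counts scaled to a common library total by TMM) summed over 9 markers in pyruvate libraries and 2734 to 3498 CPM in control libraries. Of those, 5 lay above and 4 below a fold change of 0, and none passed the test with all libraries. Without control replicate 2, the stem cell marker Zbtb16 was higher (edgeR adjusted p = 0.0081), and Sohlh2 (0.0316) and Thy1 (0.0189) were lower. Thy1 was listed here with the fibroblast and feeder markers, and its change alone does not show a change in feeder content. Fibroblast and feeder markers summed to 76.2 to 108 CPM over 8 genes in pyruvate libraries, against 73.9 to 86.4 CPM in control libraries. Of these 8, 6 were tested, and 1 lay above and 5 below a fold change of 0. Their median log2 fold change was -0.29, or -0.14 without control replicate 2, and 2 had an unadjusted edgeR p under 0.05. With all libraries none of the 6 passed. Sertoli markers summed to 22.9 to 28.3 CPM in pyruvate libraries, against 24.5 to 28.6 CPM in control libraries. Endothelial markers summed to 19.8 to 28.0 CPM in pyruvate libraries, against 24.6 to 25.7 CPM in control libraries. The macrophage marker Adgre1 had no counts in any library, and all 5 immune markers summed to 4.96 to 6.28 CPM in pyruvate libraries, against 4.64 to 7.02 CPM in control libraries. Markers of differentiating spermatogonia (Kit, Stra8, Sohlh2) summed to 405 to 525 CPM in pyruvate libraries and 533 to 559 CPM in control libraries, with no overlap. Their part in the results below was not tested.

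The 85 genes together took 10700, 9917 and 9854 CPM in the pyruvate libraries and 11270, 8894 and 10990 CPM in the control libraries. The mean was 10160 ± 474 CPM in pyruvate and 10390 ± 1300 CPM in control libraries (SD, n = 3 each), and control replicate 2 lay below every other library. No subunit gene passed the main test with all 6 libraries. With edgeR's quasi-likelihood test and Benjamini-Hochberg adjustment over all genes at 0.05, 83 of the 85 members could be tested and 0 were higher or lower in pyruvate medium. The background was also low: 8 of 14912 genes, or 0.0536%, passed. At an unadjusted p under 0.05, 1 member was higher (Cox6b2) and 2 were lower (Atp5f1 and Uqcrc2). That is 3.61% of the tested members, against 14.4% of all tested genes. The other tools and settings called between 0 and 27 members: DESeq2 called Atp5f1 as lower and none as higher, where 0.905% of all genes were lower by that test.

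The estimates were narrow as well as small. The median log2 fold change (pyruvate minus control) of the 83 tested members was -0.02, against -0.01 for all 14912 tested genes, with 37 members above and 46 below 0. The 95% interval of the fold change lay within 1.5-fold in either direction for 77 of 83 members, and within 2-fold for 83 of 83. By complex, the median was 0.01 for complex I (20 above and 19 below 0), -0.04 for complex III with cytochrome c (3 above, 7 below), 0.03 for complex IV (10 above, 6 below) and -0.07 for complex V (4 above, 14 below). None of these medians has a fixed direction: leaving out 1 library in turn moved them between -0.08 and 0.09 for complex I, -0.17 and 0.03 for complex III, -0.10 and 0.12 for complex IV and -0.18 and 0.01 for complex V, and scaling to library totals put the median of all members at 0.01. In simulated counts with the scatter of these libraries, the same test found 41 of the 100 that were shifted 1.5-fold and 76 of the 100 shifted 2-fold. Smaller changes were thus mostly not detectable in that simulation. The shifted genes were drawn from all tested genes, and scatter was drawn for each gene on its own. The recovery among subunit genes alone was not measured.

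**Figure D1:**
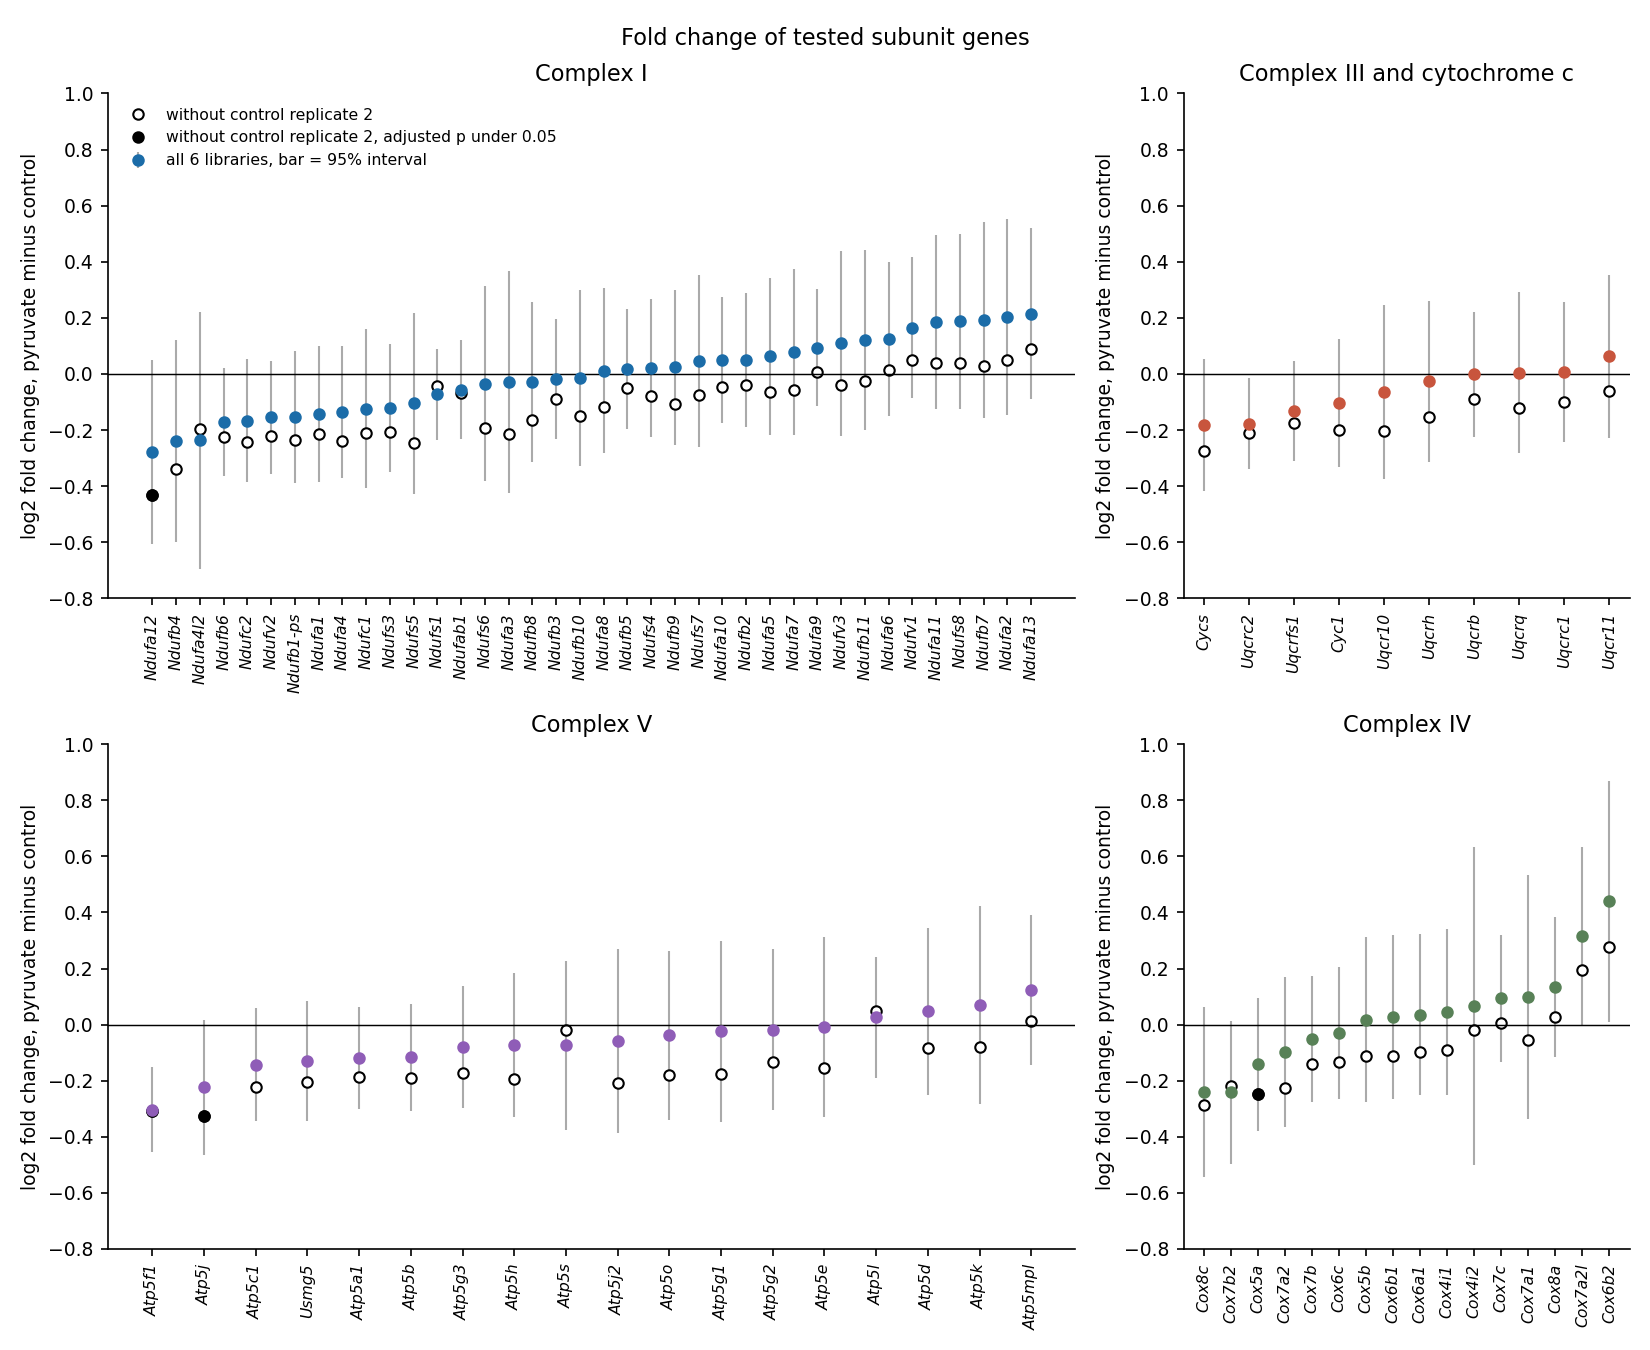
Log2 fold change (pyruvate minus control) of 82 of the 83 tested subunit genes, 1 panel per complex, genes ordered by their value. Coloured points with bars give the estimate and 95% interval from all 6 libraries, open and black points the estimate without control replicate 2. Most coloured points lie near 0, and 68 of the 82 points without control replicate 2 lie below 0.

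In these genes control replicate 2 lay farther from the other libraries than the groups lay from each other. Relative to each gene's mean over the 6 libraries, the median member lay at 0.09, -0.04 and -0.05 (log2) in pyruvate replicates 1, 2 and 3, and at 0.14, -0.23 and 0.10 in control replicates 1, 2 and 3. Control replicate 2 was the lowest of the 6 libraries for 62 of 83 members, and lay below both other controls for 78. Pyruvate replicate 1 was the highest library for 26 members and control replicate 1 for 36. In all complexes the same 2 control libraries were high and control replicate 2 low. Its median deviation was -0.23 for complex I, -0.21 for complex III, -0.27 for complex IV and -0.20 for complex V, whereas the median of all tested genes was near 0 in each library.

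**Figure D2:**
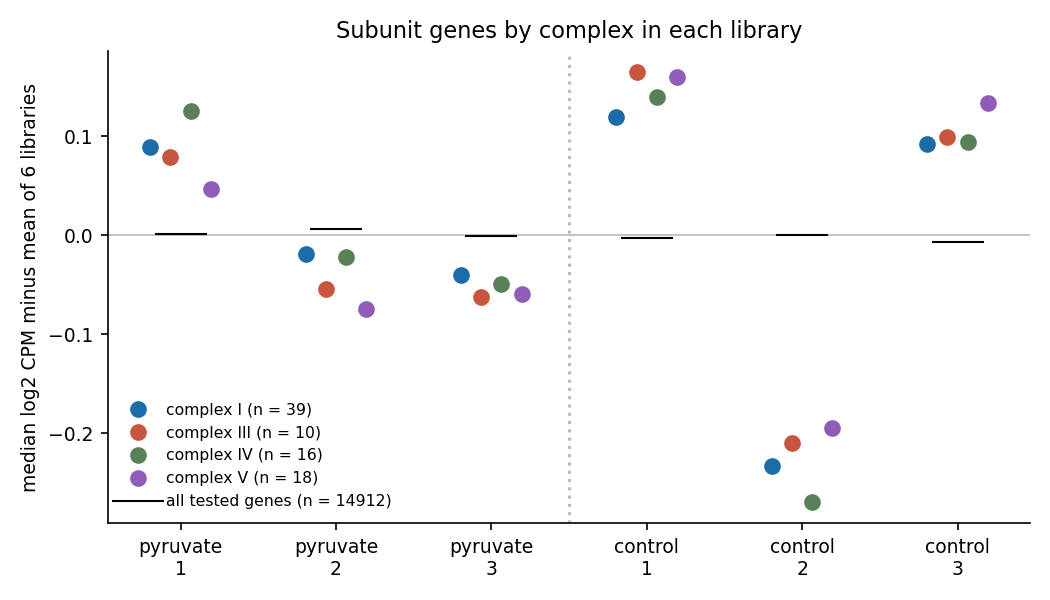
Median deviation of the tested members of each complex from the mean of the 6 libraries (log2 CPM, vertical axis) in each library (horizontal axis), with the median of all 14912 tested genes as a black dash. All 4 complexes lie between -0.20 and -0.27 in control replicate 2 and between 0.09 and 0.16 in the other controls.

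Subunit transcripts are short, and length moved with this pattern. The median annotated transcript length was 727 bases for the members and 2734 bases for all tested genes. Across all 14908 tested genes of known length, the deviation of control replicate 2 went with transcript length (Spearman's rho 0.42), and across the 83 members it did so too (rho 0.31). These are descriptions across genes of 1 library, and genes are not independent replicates. After each library's trend on transcript length and GC content was removed, the median member lay at 0.01, -0.02 and -0.05 in pyruvate replicates 1, 2 and 3, and at 0.09, -0.07 and 0.07 in control replicates 1, 2 and 3. Over all members control replicate 2 was still the lowest library, by a smaller margin, but not for complex III or complex V. In complex III the medians were -0.03, -0.07 and -0.06 in pyruvate replicates 1, 2 and 3, against -0.01 in control replicate 2. In complex V pyruvate replicate 3 and control replicate 2 both lay at -0.07. With the trend removed, Atp5f1 was lower in pyruvate libraries (adjusted p = 0.0118) and no other member passed, against a background of 2.69% of all genes lower.

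Without control replicate 2, 4 members were lower and 0 higher by the same edgeR test: Ndufa12, Cox5a, Atp5f1 and Atp5j. In that fit 1.82% of all genes were lower. The median member lay at -0.12, against 0.01 for all genes, and 69 of the 83 members lay below 0, against 47.6% of all genes. By complex the median was -0.08 for complex I (31 of 39 below 0), -0.17 for complex III (10 of 10), -0.10 for complex IV (12 of 16) and -0.18 for complex V (16 of 18). With that library left out and the length and GC trend also removed, 14 members were lower and 0 higher, where 6.98% of all genes were lower. They were Ndufa4, Ndufa12 and Ndufc2 of complex I, Uqcrc2, Cyc1 and Cycs of complex III with cytochrome c, Cox5a and Cox7a2 of complex IV, and Atp5a1, Atp5b, Atp5c1, Atp5f1, Atp5h and Atp5j of complex V. When all 6 libraries were kept but weighted by their scatter (limma-voom with quality weights), 27 members were lower and 0 higher, with 8.04% of all genes lower. The estimates were thus lower where that 1 control library was left out or given less weight. The weighted fit also gave less weight (0.425) to pyruvate replicate 1, the highest library for 26 members. What each weight added was not tested. Control replicate 2 lay below both other controls for 78 of the 83 members, so a lower estimate without it follows by arithmetic. It is no separate evidence of a change, and leaving that library out leaves 2 controls.

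Groups that did not overlap were found for 8 tested members. Cox7a2l was higher in every pyruvate library than in any control library, 1 of 83, where 11.9% of all tested genes were separated in that direction. Ndufb6, Ndufab1, Uqcrc2, Uqcrfs1, Cox7b2, Cox8c and Atp5f1 were lower in every pyruvate library, 7 of 83, where 10.6% of all genes were. Neither share exceeded its background.

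In complex V, the b subunit gene Atp5f1 (RefSeq name Atp5pb) gave the lowest p of all members. It encodes a long helix of the peripheral stalk, which holds the catalytic head of the ATP synthase still against the turning rotor. The gene lies at chr3:105942698-105960099 on the minus strand (GRCm38). It had 235, 246 and 230 CPM in pyruvate libraries, against 295, 290 and 292 CPM in control libraries, so that the groups did not overlap and control replicate 2 lay with the other controls. The log2 fold change was -0.30 ± 0.07 (SE), with an edgeR adjusted p of 0.134 over all genes. It fell by 0.31 without control replicate 2 (adjusted p = 0.0198), and it was also lower by DESeq2 with all libraries (adjusted p = 0.0213). Across all 19 alternatives its log2 fold change ran between -0.33 and -0.27, and the adjusted p between 0.0016 and 0.409.

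Of the other peripheral stalk genes, Atp5j, the gene of coupling factor 6, had 87.0, 95.6 and 86.9 CPM in pyruvate libraries and 113, 89.7 and 112 CPM in control libraries. The groups overlapped through control replicate 2, and the log2 fold change was -0.22 ± 0.11 (SE; edgeR adjusted p = 0.380). Without that library it fell by 0.33 (adjusted p = 0.0298). Atp5h, the d subunit, averaged 142 ± 4.71 CPM in pyruvate and 149 ± 22.3 CPM in control libraries, and Atp5o, the subunit that joins the stalk to the head, averaged 243 ± 19.2 CPM in pyruvate and 250 ± 44.4 CPM in control libraries (SD, n = 3 each). All 4 stalk genes lay below 0, with a median of -0.15, or -0.25 without control replicate 2. Set against the beta subunit gene in the same library and per length, Atp5f1 stood at 22.5%, 24.8% and 22.9% of Atp5b in pyruvate libraries and at 25.2%, 29.4% and 25.6% in control libraries. These ratios did not overlap, and the exact permutation test gave p = 0.1, two-sided, the smallest that 3 against 3 libraries allow (adjusted p = 0.175 over 7 ratios). This ratio was chosen after the values were seen, and Atp5f1 was already separated by CPM.

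The catalytic head of the ATP synthase is built of alpha and beta subunits around the turning gamma subunit. The beta subunit gene Atp5b had 1250, 1184 and 1204 CPM in pyruvate libraries, against 1401, 1180 and 1363 CPM in control libraries. It was the highest member per length of complex V in both groups, at 633 CPM per kb in pyruvate and 686 CPM per kb in control libraries. The alpha subunit gene Atp5a1 had 682, 678 and 669 CPM in pyruvate libraries, against 776, 663 and 763 CPM in control libraries. The gamma subunit gene Atp5c1 had 225, 212 and 208 CPM in pyruvate libraries, against 250, 211 and 251 CPM in control libraries. In all 3 genes the pyruvate libraries lay near control replicate 2 and below the other controls. Their log2 fold changes were -0.12, -0.12 and -0.14, with edgeR adjusted p between 0.499 and 0.561. None passed the same edgeR test without control replicate 2 either (adjusted p = 0.0626 to 0.0896). All 3 passed when the length and GC trend was also removed there (edgeR adjusted p = 0.0098 to 0.0266).

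The c ring, the rotor through which protons pass, is made from Atp5g1, Atp5g2 and Atp5g3, genes that encode the same mature protein. They averaged 124 ± 9.26, 25.7 ± 2.10 and 138 ± 0.32 CPM in pyruvate libraries and 126 ± 24.6, 26.0 ± 3.73 and 145 ± 17.2 CPM in control libraries (SD, n = 3 each). Per length, Atp5g1 made up 45.3% ± 1.32 of the 3 in pyruvate and 44.4% ± 2.12 in control libraries, Atp5g2 12.7% ± 0.46 in pyruvate and 12.4% ± 0.15 in control libraries, and Atp5g3 42.0% ± 1.78 in pyruvate and 43.1% ± 1.98 in control libraries. For each of the 3 genes the mean share thus differed between groups by less than its SD in pyruvate libraries. For Atp5g2 it differed by more than the small SD in control libraries. Of the small membrane subunits, Atp5mpl had the highest fold change of complex V (log2 0.12 ± 0.12 SE, edgeR adjusted p = 0.669, and 0.01 without control replicate 2), at 85.0, 75.3 and 73.8 CPM in pyruvate libraries, against 77.4, 60.2 and 77.3 CPM in control libraries. Atpif1, the inhibitor that blocks the synthase when it runs backwards, is not a member by name. It had 140, 119 and 118 CPM in pyruvate libraries and 131, 97.8 and 130 CPM in control libraries (log2 0.07, adjusted p = 0.825, and -0.05 without control replicate 2).

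In complex IV, cytochrome c oxidase, Cox5a was the member that passed without control replicate 2. It encodes a subunit on the matrix side, and had 168, 164 and 156 CPM in pyruvate libraries, against 195, 152 and 191 CPM in control libraries. The log2 fold change was -0.14 ± 0.10 (SE; edgeR adjusted p = 0.574). It fell by 0.25 without control replicate 2 (adjusted p = 0.0452). Cox5b, another matrix-side subunit, averaged 149 ± 14.4 CPM in pyruvate and 147 ± 24.0 CPM in control libraries (SD, n = 3 each). Cox4i1, the usual form of subunit 4, had the highest level per length of complex IV, at 639 ± 56.0 CPM per kb in pyruvate and 620 ± 106 CPM per kb in control libraries.

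The tissue-restricted forms of complex IV subunits differed widely in level. Cox7b2, the testis form of subunit 7b, had 26.1, 31.7 and 24.6 CPM in pyruvate libraries and 31.8, 33.4 and 32.1 CPM in control libraries. The groups did not overlap, by a narrow margin, and the log2 fold change was -0.24 ± 0.11 (SE; edgeR adjusted p = 0.373). Per length it stood at 96.8% ± 11.5 of Cox7b in pyruvate and 112% ± 16.1 in control libraries (SD, n = 3 each). The testis form and the common form thus stood at like levels per length. That share rests on annotated transcript lengths of 542 bases for Cox7b2 and 1001 for Cox7b. Before division by length, Cox7b averaged 52.3 CPM in pyruvate and 54.2 CPM in control libraries. Cox7b also has 2 near-identical copies elsewhere in the genome and Cox7b2 has none, so Cox7b may have lost reads that fit more than 1 place. The other testis forms were minor: per length, Cox6b2 stood at 4.86% ± 0.45 of Cox6b1 in pyruvate and 3.68% ± 0.27 in control libraries, and Cox8c at 3.61% ± 0.35 of Cox8a in pyruvate and 4.72% ± 0.41 in control libraries.

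The muscle and lung forms were low or near 0. Cox7a1, the heart and muscle form of subunit 7a, stood at 4.82% ± 0.42 of Cox7a2 per length in pyruvate and 4.22% ± 0.30 in control libraries. Cox4i2, the lung form of subunit 4, stood at 0.19% ± 0.01 of Cox4i1 in pyruvate and 0.19% ± 0.02 in control libraries, on 18 to 25 counts per library. The members that could not be tested were a pair of muscle forms: Cox6a2 had 4 to 5 counts in pyruvate libraries and 0 to 3 in control libraries, and Cox8b had 0 counts in all 6 libraries, where 3 counts would be 0.114 to 0.143 CPM.

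**Figure D3:**
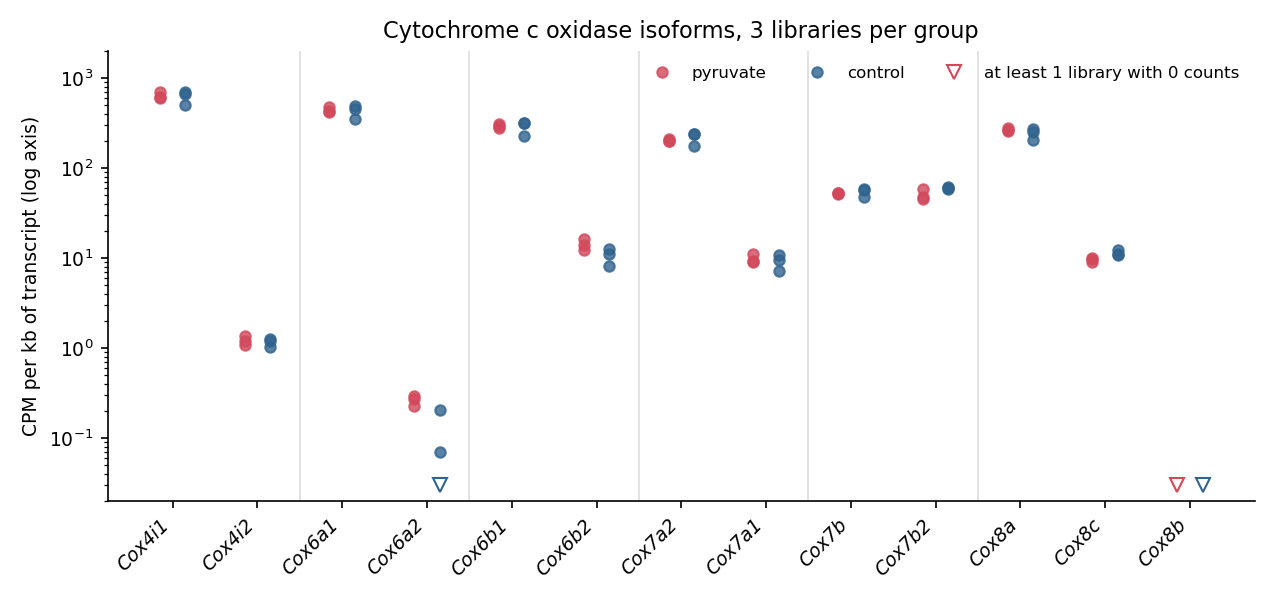
Levels of cytochrome c oxidase isoforms in CPM per kb of annotated transcript (log axis), 1 point per library, pyruvate left of control for each gene. Open triangles mark groups with at least 1 library at 0 counts. Cox7b2 lies level with Cox7b, whereas the other alternative forms lie well below their common forms and Cox8b is at 0.

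Cox6b2 and Cox7a2l were the complex IV members with the highest fold changes. Cox6b2 had 7.57, 6.52 and 5.73 CPM in pyruvate libraries and 5.10, 3.77 and 5.83 CPM in control libraries, which overlapped, with a log2 fold change of 0.44 ± 0.19 (SE; edgeR adjusted p = 0.336). Without control replicate 2 it was 0.28 (adjusted p = 0.357). Cox7a2l, a relative of subunit 7a that links complexes III and IV into supercomplexes, had 79.4, 65.5 and 61.3 CPM in pyruvate libraries, against 59.9, 45.6 and 60.3 CPM in control libraries. Every pyruvate library lay above every control by a narrow margin, and the log2 fold change was 0.32 ± 0.14 (SE; adjusted p = 0.351). Without control replicate 2 it was 0.19 (adjusted p = 0.304).

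Ratios within a library do not depend on how libraries are scaled. They still carry each library's trend on length and GC content where the genes compared differ in these. The annotated transcript of Cox7a2l has 1076 bases and that of Cox7a2 has 659, and Cox8c has 48.7% GC and Cox8a 58.5%. The part of this trend in the ratios was not tested. Cox7a2l stood at 35.1%, 30.3% and 29.0% of Cox7a2 per length in pyruvate libraries and at 23.4%, 24.0% and 23.8% in control libraries, where control replicate 2 lay with the other controls. Cox6b2 stood at 5.34%, 4.79% and 4.45% of Cox6b1 in pyruvate libraries and at 3.48%, 3.58% and 3.98% in control libraries. Cox8c stood at 3.22%, 3.84% and 3.79% of Cox8a in pyruvate libraries and at 4.50%, 5.19% and 4.45% in control libraries. In these 3 ratios the groups did not overlap, 1.33 and 1.32 times the control mean for Cox7a2l and Cox6b2 and 0.77 times for Cox8c. The exact two-sided permutation test gave p = 0.1 for each, the smallest this design allows, and the adjusted p was 0.175 over 7 ratios, so that none passed. The ratios were chosen after the values were seen, which the adjustment does not cover. Cox7a2l and Cox8c were already separated by CPM, and Cox6b2 had the highest fold change of all members. Their lack of overlap is therefore no separate support. The ratios of Cox7a1 to Cox7a2 and of Cox7b2 to Cox7b overlapped between groups (exact permutation p = 0.2 and 0.3).

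Complex I, which oxidises NADH, has the most members. Its 7 nuclear core subunits, most of which carry the flavin or iron-sulfur clusters, had a median log2 fold change of 0.03 (4 above, 3 below 0), and of the 32 accessory members 16 lay above and 16 below 0. Both counts rest on control replicate 2: without it 5 of the 7 core subunits lay below 0, with a median of -0.07, and 26 of the 32 accessory members, with a median of -0.10. Ndufv1, the core subunit that binds NADH and flavin, had 391, 360 and 374 CPM in pyruvate libraries, against 374, 279 and 349 CPM in control libraries (log2 0.16 ± 0.11 SE, edgeR adjusted p = 0.528), and its log2 fold change was 0.05 without control replicate 2. Ndufs1, the core subunit with the most iron-sulfur clusters, averaged 158 ± 4.04 CPM in pyruvate and 166 ± 7.33 CPM in control libraries (SD, n = 3 each). Ndufv2, another iron-sulfur subunit, had 99.5, 97.7 and 90.3 CPM in pyruvate libraries, against 114, 96.7 and 109 CPM in control libraries. The log2 fold changes of Ndufs1 and Ndufv2 were -0.07 and -0.16, or -0.04 and -0.22 without control replicate 2, and neither passed the test in either fit.

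Among the accessory subunits Ndufa12 had the lowest fold change. It had 35.1, 34.7 and 32.5 CPM in pyruvate libraries, against 45.2, 32.0 and 46.9 CPM in control libraries, with a log2 fold change of -0.28 ± 0.14 (SE; edgeR adjusted p = 0.420). It fell by 0.43 without control replicate 2 (adjusted p = 0.0189), the most of the tested members of complex I in that fit. Ndufb6 had 46.9, 47.2 and 45.5 CPM in pyruvate libraries, against 55.4, 48.5 and 53.3 CPM in control libraries, and did not pass in either fit (adjusted p = 0.401 and 0.109). Ndufa13 had the highest fold change of the complex, 0.21 ± 0.13 (SE; adjusted p = 0.502; 0.09 without control replicate 2), at 108, 88.7 and 91.6 CPM in pyruvate libraries, against 87.6, 67.5 and 93.2 CPM in control libraries. Ndufab1, the mitochondrial acyl carrier protein, averaged 40.0 ± 0.54 CPM in pyruvate and 41.6 ± 0.81 CPM in control libraries, a log2 fold change of -0.06 although the groups did not overlap. Ndufa4, kept here under complex I by name although it is now counted as a complex IV subunit, averaged 116 ± 4.12 CPM in pyruvate and 128 ± 16.5 CPM in control libraries. Its paralog Ndufa4l2, known as a hypoxia-induced gene, was low, at 1.43 to 1.86 CPM in pyruvate and 1.66 to 2.05 CPM in control libraries. Per length, members of complex I ran from 1.73 CPM per kb for Ndufa4l2 to 330 CPM per kb for Ndufa7 in pyruvate libraries, and from 2.04 to 313 CPM per kb for the same genes in control libraries.

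Complex III moves electrons from quinol to cytochrome c. Uqcrc2, a core protein of its matrix side, had 118, 123 and 120 CPM in pyruvate libraries, against 142, 130 and 137 CPM in control libraries, without overlap. The log2 fold change was -0.18 ± 0.07 (SE; edgeR adjusted p = 0.317), and -0.21 without control replicate 2 (adjusted p = 0.0734). Its partner Uqcrc1 averaged 250 ± 13.7 CPM in pyruvate and 249 ± 35.2 CPM in control libraries (SD, n = 3 each). Uqcrfs1, the Rieske iron-sulfur protein, had 79.1, 78.5 and 78.0 CPM in pyruvate libraries, against 91.2, 80.5 and 86.3 CPM in control libraries, also without overlap. Cyc1, cytochrome c1, averaged 226 ± 11.2 CPM in pyruvate and 243 ± 30.0 CPM in control libraries. Cycs, the somatic cytochrome c, had 53.6, 57.7 and 57.5 CPM in pyruvate libraries, against 68.4, 55.3 and 67.9 CPM in control libraries. Its log2 fold change was -0.18 ± 0.10 (SE; adjusted p = 0.463), and -0.28 without control replicate 2 (adjusted p = 0.0573). Uqcr11, a small subunit, had the highest fold change of the complex, 0.06, and -0.06 without control replicate 2.

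**Figure D4:**
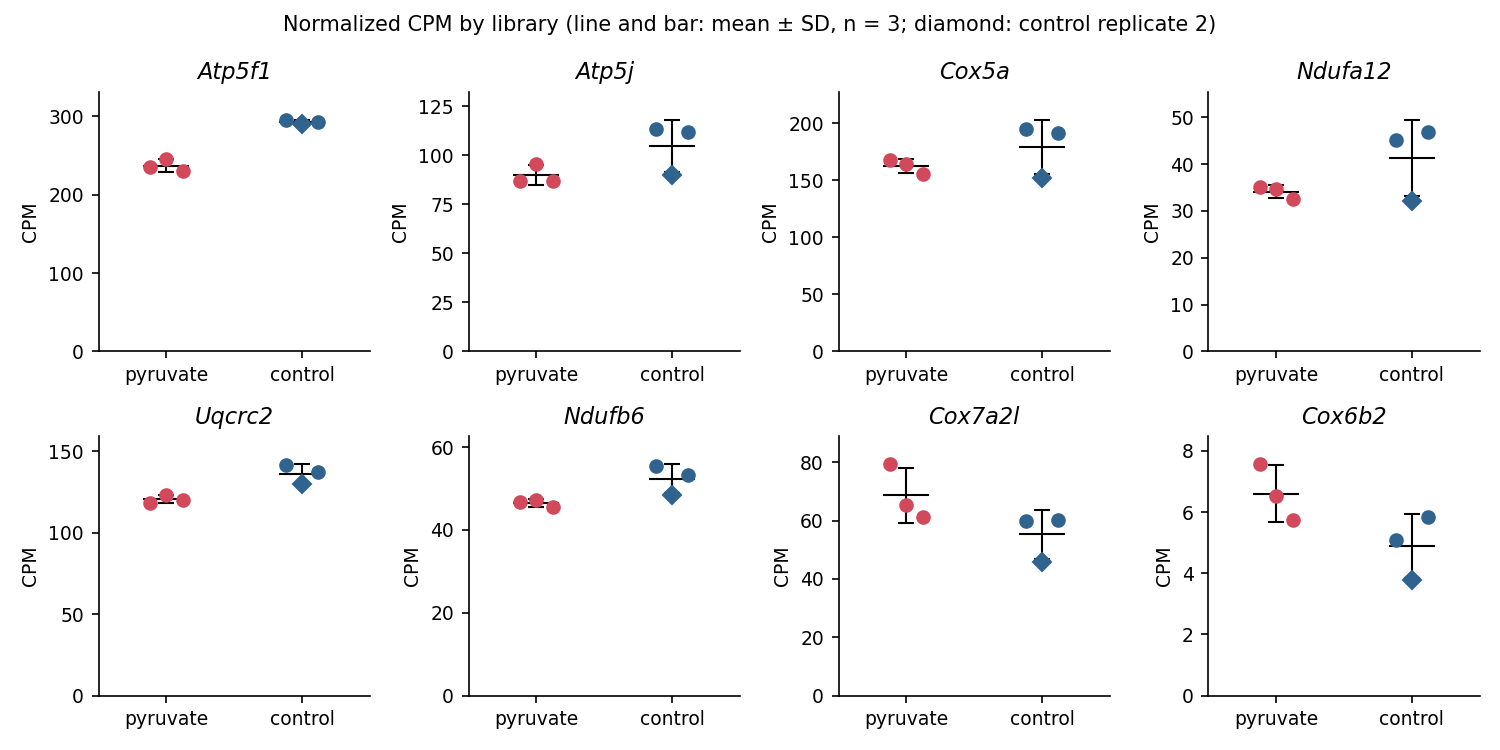
Normalized CPM of 8 subunit genes in each library, pyruvate left of control, with mean and SD as lines. The diamond marks control replicate 2, which lies with the other controls for Atp5f1 and within or below the range of the pyruvate libraries for Atp5j, Cox5a and Ndufa12.

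Some of these counts may hold reads of other genes. Exons of 32 members overlap those of another gene, 23 have a near-identical copy elsewhere in the genome (at least 95% identity over at least 200 bases), and 45 have one or the other. Counts of Atp5l, Cox5b and Cycs could be shared with Gm5426, Gm11273 and Gm10053, copies that have rows of their own. Whether the counting used strand is unknown here, and values of overlapping members are uncertain to that degree. Atp5f1 overlaps Wdr77 on the opposite strand and has 1 near-identical copy. Wdr77 had 284, 298 and 291 CPM in pyruvate libraries, against 307, 327 and 307 CPM in control libraries (log2 -0.11 ± 0.07 SE, edgeR adjusted p = 0.500). Atp5j overlaps Gabpa, the gene of a factor that binds promoters of respiratory genes, at 77.1, 94.2 and 94.0 CPM in pyruvate libraries, against 84.5, 118 and 86.3 CPM in control libraries. Gabpa was highest in control replicate 2, the library in which Atp5j was lowest among controls. Cox5a overlaps Gm26631, at 0.14 to 0.27 CPM in pyruvate and 0.18 to 0.24 CPM in control libraries. Ndufa12 and Cox7a2l have 1 near-identical copy each, and Uqcrc2 and Ndufb6 overlap Pdzd9 and Smim27 on the opposite strand.

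The promoters of the 4 genes that were lower without control replicate 2 are shown because known activators of respiratory genes bind short, recognisable motifs there. Each line holds 250 bases before and 50 after the RefSeq start site (GRCm38.p6), written in the direction of transcription. Capitals mark matches on either strand to the motifs of NRF1 (GCGCATG), GABP (CCGGAAG), YY1 (ATGGCGG) and SP1 (GGGCGG) or to a TATA box (TATAAA). Atp5f1 spans chr3:105959214-105959513 (minus strand), Cox5a chr9:57520982-57521281 (plus) and Ndufa12 chr10:94198785-94199084 (plus). Atp5j has a pair of start sites, with windows at chr16:84835576-84835875 and chr16:84834927-84835226 (minus).
Atp5f1: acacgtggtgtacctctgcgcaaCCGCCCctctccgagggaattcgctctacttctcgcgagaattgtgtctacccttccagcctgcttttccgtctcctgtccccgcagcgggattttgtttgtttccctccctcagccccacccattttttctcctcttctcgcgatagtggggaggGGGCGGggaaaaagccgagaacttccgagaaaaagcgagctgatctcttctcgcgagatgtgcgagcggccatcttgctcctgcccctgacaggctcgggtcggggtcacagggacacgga
Cox5a: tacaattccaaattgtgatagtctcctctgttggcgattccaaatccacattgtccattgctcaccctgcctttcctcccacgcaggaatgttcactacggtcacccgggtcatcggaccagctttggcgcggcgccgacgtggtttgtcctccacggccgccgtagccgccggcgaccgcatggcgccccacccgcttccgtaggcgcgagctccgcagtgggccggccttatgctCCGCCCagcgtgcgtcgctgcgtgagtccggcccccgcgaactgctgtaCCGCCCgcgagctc
Ndufa12: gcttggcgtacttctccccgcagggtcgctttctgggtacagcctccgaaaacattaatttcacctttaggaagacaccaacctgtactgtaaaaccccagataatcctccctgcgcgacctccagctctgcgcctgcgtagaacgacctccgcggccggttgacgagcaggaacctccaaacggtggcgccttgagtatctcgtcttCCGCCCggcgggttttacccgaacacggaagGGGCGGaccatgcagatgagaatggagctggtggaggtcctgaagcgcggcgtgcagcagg
Atp5j, upstream start: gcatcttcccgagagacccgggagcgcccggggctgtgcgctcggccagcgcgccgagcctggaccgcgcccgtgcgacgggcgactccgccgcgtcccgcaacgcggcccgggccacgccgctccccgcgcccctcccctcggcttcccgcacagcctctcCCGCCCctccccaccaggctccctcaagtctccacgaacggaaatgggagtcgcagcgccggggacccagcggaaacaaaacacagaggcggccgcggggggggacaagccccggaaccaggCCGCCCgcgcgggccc
Atp5j, downstream start: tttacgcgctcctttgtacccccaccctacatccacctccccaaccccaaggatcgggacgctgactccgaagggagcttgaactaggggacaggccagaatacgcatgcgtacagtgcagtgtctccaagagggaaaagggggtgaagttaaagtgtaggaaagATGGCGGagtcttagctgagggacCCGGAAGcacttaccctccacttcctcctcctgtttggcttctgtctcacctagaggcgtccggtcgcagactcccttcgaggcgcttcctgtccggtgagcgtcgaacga

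Each of the 5 windows held 2 matches. In Atp5f1, Cox5a, Ndufa12 and the upstream Atp5j window both were SP1 boxes, and in the downstream Atp5j window 1 was a GABP and 1 a YY1 motif. In all, 69 of the 85 members matched a promoter in the table, with 74 windows. The NRF1 motif was in 13 of 74 member windows (17.6%), against 3.91% of all 32851 windows of the same length. The GABP motif was in 15 (20.3%, against 8.86%) and the YY1 motif in 11 (14.9%, against 4.05%). The SP1 box was in 30 (40.5%, against 35.7%) and the TATA box in 9 (12.2%, against 13.6%). The YY1 motif was in 9 of 36 complex I windows, 2 of 19 complex V windows and none of 6 complex III or 13 complex IV windows. The GABP motif was in 4 of 36 complex I, 2 of 6 complex III, 3 of 13 complex IV and 6 of 19 complex V windows. A match is a run of letters and shows no binding, and SP1 boxes can overlap other motifs.

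Other genes of the pathway were like the members in that none passed the main edgeR test with all libraries. Over complex II, assembly factors of complexes I, III, IV and V and regulators, 65 of 67 genes in the lists were tested. In that fit 0 passed, with 25 above and 40 below 0 and 4 at an unadjusted p under 0.05. Complex II, succinate dehydrogenase, had 2 members above and 2 below 0. Its membrane anchor Sdhd had 78.3, 77.6 and 76.6 CPM in pyruvate libraries, against 93.4, 81.5 and 92.2 CPM in control libraries, and fell by 0.26 without control replicate 2 (edgeR adjusted p = 0.0453), the only gene of these pathway lists to pass there. Its other subunits Sdha, Sdhb and Sdhc averaged 325, 139 and 150 CPM in pyruvate and 332, 134 and 142 CPM in control libraries.

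All 5 tested assembly factors of complex V lay below 0, with a median of -0.12, or -0.18 without control replicate 2. Atpaf1, which chaperones the beta subunit, had 19.1, 19.3 and 20.8 CPM in pyruvate libraries, against 24.7, 27.9 and 24.4 CPM in control libraries, without overlap. The log2 fold change was -0.38 ± 0.10 (SE; edgeR adjusted p = 0.160), and -0.32 without control replicate 2 (adjusted p = 0.0789). With all 6 libraries and the length and GC trend removed, Atpaf1 passed (edgeR adjusted p = 0.0315), where 2.69% of all genes were lower. It also passed with quality weights (limma-voom adjusted p = 0.0136), where 8.04% were lower, but not by DESeq2 (adjusted p = 0.0637). Assembly factors of complex I (6 above, 10 below 0), complex III (3 and 3) and complex IV (13 and 10) lay on both sides, with medians of -0.03, 0.02 and 0.02, or -0.09, 0.06 and -0.04 without control replicate 2.

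Of the regulators, 10 of 11 tested lay below 0, with a median of -0.12, against 51.9% of all genes below 0. None passed the main edgeR test with all libraries. The count below 0 rests in part on control replicate 2. Without it their median was -0.07, and Gabpa, Ppargc1b, Tfb2m and Polrmt lay above 0 (log2 0.05, 0.47, 0.08 and 0.02). The other tested regulators lay below 0 there. Nrf1, an activator of many respiratory genes, had 96.4, 95.2 and 94.9 CPM in pyruvate libraries, against 108, 105 and 102 CPM in control libraries (log2 -0.14 ± 0.07 SE, edgeR adjusted p = 0.414). Tfam, which packs mitochondrial DNA and starts its transcription, averaged 64.7 CPM in pyruvate and 71.2 CPM in control libraries. Of the PGC-1 coactivators, Pprc1 was abundant, at 604 CPM in pyruvate and 616 CPM in control libraries. Ppargc1b averaged 0.58 CPM in pyruvate and 0.61 CPM in control libraries, and Ppargc1a, at 0.08 CPM in both groups, was below the limit for testing.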

How the data were processed

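RNA of mouse germline stem cells was sequenced from 3 libraries in 8 mM pyruvate medium and 3 in complete medium. Per the labels' protocols, TRIzol and a column kit were used for RNA, and a stranded mRNA kit for the libraries. Raw counts per gene, as whole numbers, are what the authors deposited. Per the submitters' processing notes, the tools were STAR 2.7.11a, HTSeq 2.0.5, cutadapt 4.6 and bcl2fastq 2.20, with the build mm10. Annotation, strand setting and filters: not given in the sources used here. The table has 3 more columns, which match none of the samples and were not used. The share of counts without a gene was 0.

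The main test was run with edgeR 4.0.16 in R 4.3.3: filterByExpr (minimum count 10), TMM factors, the robust quasi-likelihood test without covariates and Benjamini-Hochberg adjustment at 0.05 over all 14912 tested genes. Log2 fold changes are pyruvate minus control, with the SE taken from the test's F value. CPM are TMM-normalized, and log2 CPM used a prior count of 2. Levels per kb divide CPM by the length of the principal transcript in GENCODE M21 (GRCm38). Near-identical copies were found with blastn 2.17.0. Promoter sequences are from RefSeq (GRCm38.p6). The smallest library held 20918312 counts, and floors of 3 counts cover counting error only. Library pairs within a group differed by more than sampling noise (chi-square per gene 2.97 to 43.3). Each library was counted as 1 sample, but this excess cannot show that libraries came from separate cultures.

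Alternatives to the scaling were library totals, upper quartiles and the size factors of DESeq2. Other tests were limma-voom (limma 3.58.1) and DESeq2 1.42.0, and other filters were none or 5 CPM in 3 libraries. A replicate block, offsets that remove the trend of each library on length and GC content (splines, 5 degrees of freedom) and leaving out each library were also tried. Added after seeing the data were leaving out control replicate 2 with the trend removed or with DESeq2, voom with library quality weights, and the ratios within libraries. The test was checked on simulated counts for these 14912 genes, where it called 9 unchanged genes.

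Members and gene lists were chosen with earlier results of these data known. Named are, per complex, the 3 members of lowest p and those of highest and lowest fold change, every gene past the threshold with all libraries or without control replicate 2, and genes fixed by name. Other genes named were chosen after their values were seen, among them Atpaf1, Wdr77, Atp5h and Atp5o. The values of 1 member, which enters the counts and medians, are not reported here. Coa1 was not analysed here, and Pet117 had 0 counts.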

Additional observations from a re-analysis of the deposited data

How the results depend on the processing

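In the main edgeR test with all libraries, 0 members and 8 genes in all were called. Of all genes, 14 were called with library totals, 15 with upper-quartile scaling, 83 with no filter, 317 by DESeq2, 684 after removal of the length and GC trend, and 0 to 625 on leaving out 1 library, where 625 came without control replicate 2. Added after seeing the data, leaving out control replicate 2 gave 1604 with the trend removed and 851 by DESeq2, and quality weights gave 2643. Members called were 1 by DESeq2, 1 with the trend removed, 0 to 4 on leaving out 1 library, 14 and 5 in the added fits without control replicate 2, and 27 with quality weights. The genes of the related lists called were 1 with the trend removed (Atpaf1), 0 to 1 on leaving out 1 library, 4 and 1 in the added fits without control replicate 2, and 8 with quality weights. The cause of these differences was not tested.

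The replicate numbers are not said to pair the samples. The deviations of same-numbered libraries correlated at 0.311, 0.311 and -0.07, against -0.385 to 0.213 for libraries of unlike number. Deviations from a mean of 3 libraries sum to 0 within a group, so these values do not settle whether samples are paired. With the number as a replicate block 265 genes and 0 members were called. With the replicate block and the trend removed, 1356 genes were called, with 3 members (Atp5f1 and Atp5j lower, Cox7a2l higher) and 1 gene of the related lists.

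The median over tested members ran from -0.15 to 0.06 across the alternatives. For the 52 named genes, 932 of 980 values under an alternative stayed on the same side of the threshold. The other 48 newly passed it, 47 of them lower and 1 higher in pyruvate medium, and 0 passed in the reverse direction. In 21 genes the sign changed in 95 values with neither value past the threshold, so these genes have no fixed direction. Depth limited the low isoforms most: Cox4i2, the tested member with the fewest counts, had 18 to 25 in each library.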
